A study of Arabidopsis thaliana with 12 samples.

Results

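Cysteine-rich receptor-like kinases (CRKs) of Arabidopsis thaliana were followed in 2-week-old seedlings of a med8 mutant and of its wild type Col-0, grown with or without methyl viologen. The members were the loci of a list of 40 annotated CRK genes. The list was selected on annotation, but with earlier results of these same count comparisons known, so the calls below describe the members and are no independent support. The count table held 38 of them among its 21543 loci, all 38 passed the count filter, and CRK1 and CRK33 were not analysed here. The design had 4 groups of 3 libraries: med8 on medium with 25 nM methyl viologen (treated med8), med8 on control medium (med8 controls), Col-0 with the same dose (treated Col-0) and Col-0 on control medium (Col-0 controls). Nothing in the labels says that replicates came from separate cultures, so p-values measure only the spread between these libraries. That spread was wider than counting error alone, with a chi-square per degree of freedom of 5.84 to 37 between replicates of a group. Whether it arose in the plants or in the handling of the RNA was not tested. Methyl viologen is a herbicide that takes electrons from photosystem I and passes them to oxygen, which forms superoxide. The MED8 protein belongs to Mediator, which links transcription factors to RNA polymerase II. The labels named the mutant by gene only, with no allele, and the med8 libraries still held MED8 reads (4.85 to 6.41 CPM, against 18.9 to 22.2 CPM in the Col-0 libraries). RNA came from whole seedlings, so fewer cells of a type and less RNA per cell cannot be told apart in any value below.

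CRKs are single-pass membrane kinases. Outside the cell they carry copies of the DUF26 domain, in which cysteines stand at fixed spacing, and inside the cell a serine/threonine kinase. The family is known from work on pathogen responses, salicylic acid and reactive oxygen: several members act beside the flagellin receptor FLS2 or its signalling kinases, and CRK2 phosphorylates the NADPH oxidase RBOHD. Their ligands are mostly unknown.

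Most of these genes stand next to each other. In the RefSeq TAIR10.1 annotation, 34 of the 38 measured members lay on chromosome 4, and 32 of the 38 lay in 5 tandem arrays, taken as runs of members with under 50 kb between neighbours. CRK5 to CRK24 formed the longest, with 19 members over 74.2 kb (chr4:12117491-12191704). CRK36 to CRK40 formed another, with 5 members over 61.2 kb (chr4:2231717-2292965). The encoded proteins had between 354 and 1043 residues, and 34 of the 38 held 2 copies of the pattern of 3 cysteines with 8 and then 2 residues between them. CRK45, also named ARCK1, is a shorter kinase and held none. The first copy in each gene of the CRK36 to CRK40 array is shown because CRK37 and CRK38 of this array had the largest fitted rises in med8 below. Each line gives the coding strand in RefSeq TAIR10.1 from 5′ to 3′, with the 3 cysteine codons in capitals.
CRK36 (AT4G04490), chr4:2234375-2234413, minus strand: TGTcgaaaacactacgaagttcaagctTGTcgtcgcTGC
CRK37 (AT4G04500), chr4:2238648-2238686, plus strand: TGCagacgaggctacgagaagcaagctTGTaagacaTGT
CRK38 (AT4G04510), chr4:2242344-2242382, plus strand: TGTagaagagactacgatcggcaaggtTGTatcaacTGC
CRK39 (AT4G04540), chr4:2259817-2259855, plus strand: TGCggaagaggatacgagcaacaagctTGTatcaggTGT
CRK40 (AT4G04570), chr4:2290285-2290323, plus strand: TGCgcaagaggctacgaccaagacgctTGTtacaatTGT
The spacing is what the search required. Identity was taken among all 40 genes for pairs whose alignment covered at least 80% of the shorter coding sequence, which left out 4 pairs, all of them within an array. Members of the same array were between 63.7 and 90.2% identical (median 70.4% of 189 pairs), and members of different arrays or of none between 61.1 and 80.2% (median 66.1% of 587 pairs).

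Upstream sequence is shown for the same array because edgeR called 4 of its 5 genes for the difference in response and not the fifth, CRK40. That split depends on the fit, since DESeq2 called all 5 in the same direction. Each line holds the 300 bases before the annotated transcript start, from 5′ to 3′ on the gene's own strand in RefSeq TAIR10.1. Capitals mark the core of the W-box, the element bound by WRKY transcription factors, as TTGAC on this strand or as its reverse complement GTCAA.
CRK36, chr4:2234690-2234989, minus strand: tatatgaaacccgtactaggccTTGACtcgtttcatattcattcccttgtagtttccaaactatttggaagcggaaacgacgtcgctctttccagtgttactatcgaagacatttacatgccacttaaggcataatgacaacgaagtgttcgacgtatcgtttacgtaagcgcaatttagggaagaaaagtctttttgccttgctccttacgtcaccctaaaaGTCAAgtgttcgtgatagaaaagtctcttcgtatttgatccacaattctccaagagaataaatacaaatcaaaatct
CRK37, chr4:2238070-2238369, plus strand: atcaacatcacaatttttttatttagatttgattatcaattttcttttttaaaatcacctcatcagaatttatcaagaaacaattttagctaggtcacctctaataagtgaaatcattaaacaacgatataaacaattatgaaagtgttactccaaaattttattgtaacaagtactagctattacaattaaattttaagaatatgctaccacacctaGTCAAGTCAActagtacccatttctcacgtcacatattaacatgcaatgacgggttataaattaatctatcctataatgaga
CRK38, chr4:2241772-2242071, plus strand: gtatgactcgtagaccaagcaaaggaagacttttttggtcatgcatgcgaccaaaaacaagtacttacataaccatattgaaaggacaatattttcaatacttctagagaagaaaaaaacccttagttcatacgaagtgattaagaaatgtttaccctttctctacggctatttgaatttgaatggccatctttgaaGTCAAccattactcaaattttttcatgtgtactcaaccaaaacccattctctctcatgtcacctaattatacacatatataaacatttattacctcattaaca
CRK39, chr4:2259198-2259497, plus strand: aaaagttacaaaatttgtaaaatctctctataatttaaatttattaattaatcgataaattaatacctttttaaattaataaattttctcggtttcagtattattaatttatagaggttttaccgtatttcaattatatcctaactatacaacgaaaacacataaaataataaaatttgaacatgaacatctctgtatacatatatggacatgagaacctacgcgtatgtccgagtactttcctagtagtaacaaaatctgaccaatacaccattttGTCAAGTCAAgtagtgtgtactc
CRK40, chr4:2288316-2288615, plus strand: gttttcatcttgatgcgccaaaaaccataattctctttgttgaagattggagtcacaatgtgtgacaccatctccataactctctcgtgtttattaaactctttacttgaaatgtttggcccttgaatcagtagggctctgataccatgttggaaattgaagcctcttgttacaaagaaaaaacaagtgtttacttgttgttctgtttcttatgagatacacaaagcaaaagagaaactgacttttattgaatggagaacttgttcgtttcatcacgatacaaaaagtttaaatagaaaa
CRK36, CRK37 and CRK39 held 2 matches each, CRK38 held 1 and CRK40 held 0, and part of the CRK40 window overlaps an annotated pseudogene on the other strand. In CRK37 and CRK39 the matches stood side by side, at 82 and 77 bases and at 23 and 18 bases before the start.

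Libraries held between 30472194 and 34694751 counts, so that 3 counts were worth 0.0782 to 0.107 CPM. Some libraries stood apart for this family. Among the Col-0 controls, replicate 1 was the lowest of the 3 for 35 of 38 members and replicate 2 the highest for 29, and among the med8 controls replicate 3 was the lowest for 29. The SD between replicates on the log2 scale had a median over members of 0.27 in treated med8, 0.39 in med8 controls, 0.20 in treated Col-0 and 0.60 in Col-0 controls, against 0.10, 0.17, 0.13 and 0.13 over all loci tested. In the Col-0 controls 15 of the 38 members had an SD above 1, which 1.35% of all loci had, and replicate 2 was the highest for all 15. The same Col-0 control libraries differed in salicylic acid genes, with summed levels of 176.1, 765.8 and 374.2 CPM over 17 genes in replicates 1, 2 and 3. Root markers (15 genes) summed to 293.2 to 300 CPM in treated med8, 143.6 to 312.9 CPM in med8 controls, 214.8 to 277.3 CPM in treated Col-0 and 281.6 to 327.6 CPM in Col-0 controls. Their mean log2 levels were 2.91 to 2.97, 2.41 to 3.69, 2.68 to 3.25 and 3.63 to 3.88 in that order. PHO1 and NRT2.1 averaged 104.8 and 41.7 CPM in treated med8, against 42.95 and 2.28 CPM in med8 controls. For methyl viologen in med8, 5 of the 15 had a positive log2 fold change and 10 a negative one (median −1). Leaf markers (11 genes) summed to 25300 to 31840, 40610 to 51860, 35640 to 37870 and 36660 to 45140 CPM in the same order of groups, and morning clock genes (3 genes) to 54.6 to 72.6, 28.2 to 36.6, 113.0 to 162.7 and 18.4 to 23.4 CPM. None of these root, leaf and clock genes was at 0 in any library, and their part in the results below was not tested.

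**Figure D1:**
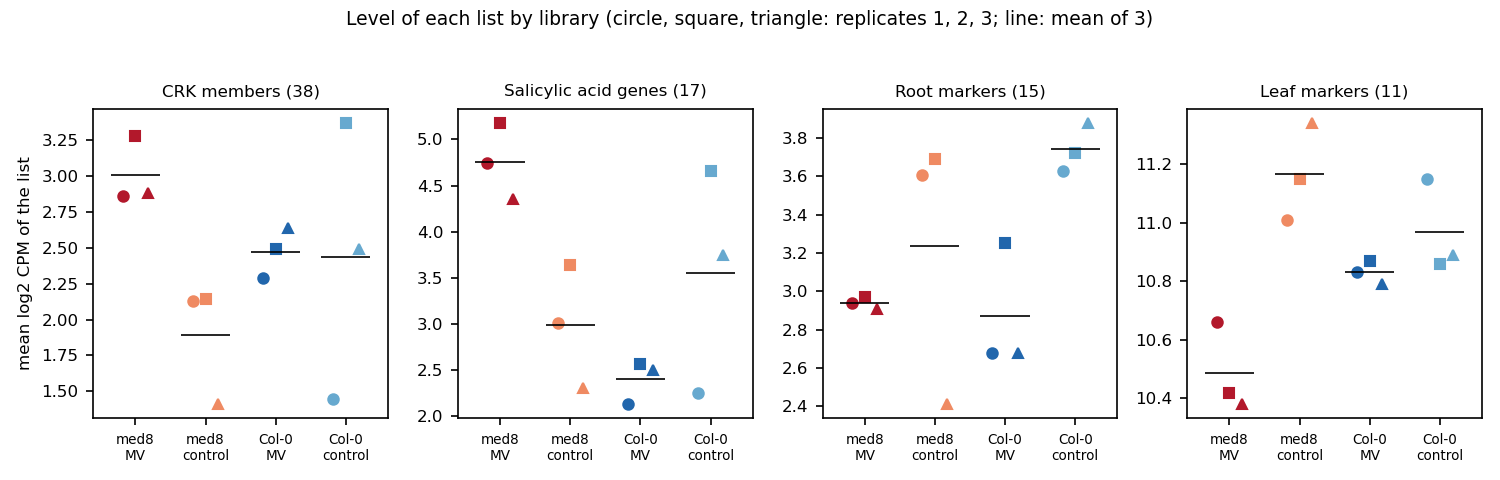
Mean log2 CPM of the 38 CRK members, 17 salicylic acid genes, 15 root markers and 11 leaf markers in each of the 12 libraries, by group, with the mean of 3 libraries as a line. The CRK members and the salicylic acid genes had Col-0 control replicate 2 (square) far above replicate 1 (circle), a wider span than between the 3 treated med8 libraries.

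Levels of CRK transcripts spanned a wide range. Per kb of transcript, the mean over all 12 libraries ran from 0.195 CPM per kb for CRK23 to 22.9 CPM per kb for CRK19, with a median of 3.38. Above 10 CPM per kb lay 8 members, CRK19, CRK21, CRK10, CRK18, CRK2, CRK3, CRK22 and CRK40, and 9 lay under 1 CPM per kb. CRK19 (AT4G23270), whose overexpression is known to trigger cell death, had 49.1, 59.7 and 51.0 CPM in treated med8, 76.3, 77.8 and 53.5 CPM in med8 controls, 50, 61.1 and 53.2 CPM in treated Col-0, and 57.4, 67.4 and 62.9 CPM in Col-0 controls, and all groups overlapped with at least one other. CRK21 and CRK10, the next in the order, averaged 22.5 and 17.7 CPM per kb over the 12 libraries. CRK21 had the highest group mean in med8 controls (26.9 ± 2.28 CPM per kb, against 26.4 ± 5.20 for CRK19), in treated Col-0 (26.1 ± 2.26, against 20.9 ± 2.18) and in Col-0 controls (24.9 ± 1.43, against 23.9 ± 1.90), and in both control groups the pair lay within their spread (SD, n = 3 each). In treated med8 CRK10 was highest at 27.2 ± 5.28 CPM per kb, before CRK19 at 20.3 ± 2.16, and CRK21 was at 12.1 ± 0.806 (SD, n = 3 each). At the low end, CRK23, CRK32 and CRK31 (0.195, 0.254 and 0.271 CPM per kb) were the lowest 3.

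**Figure D2:**
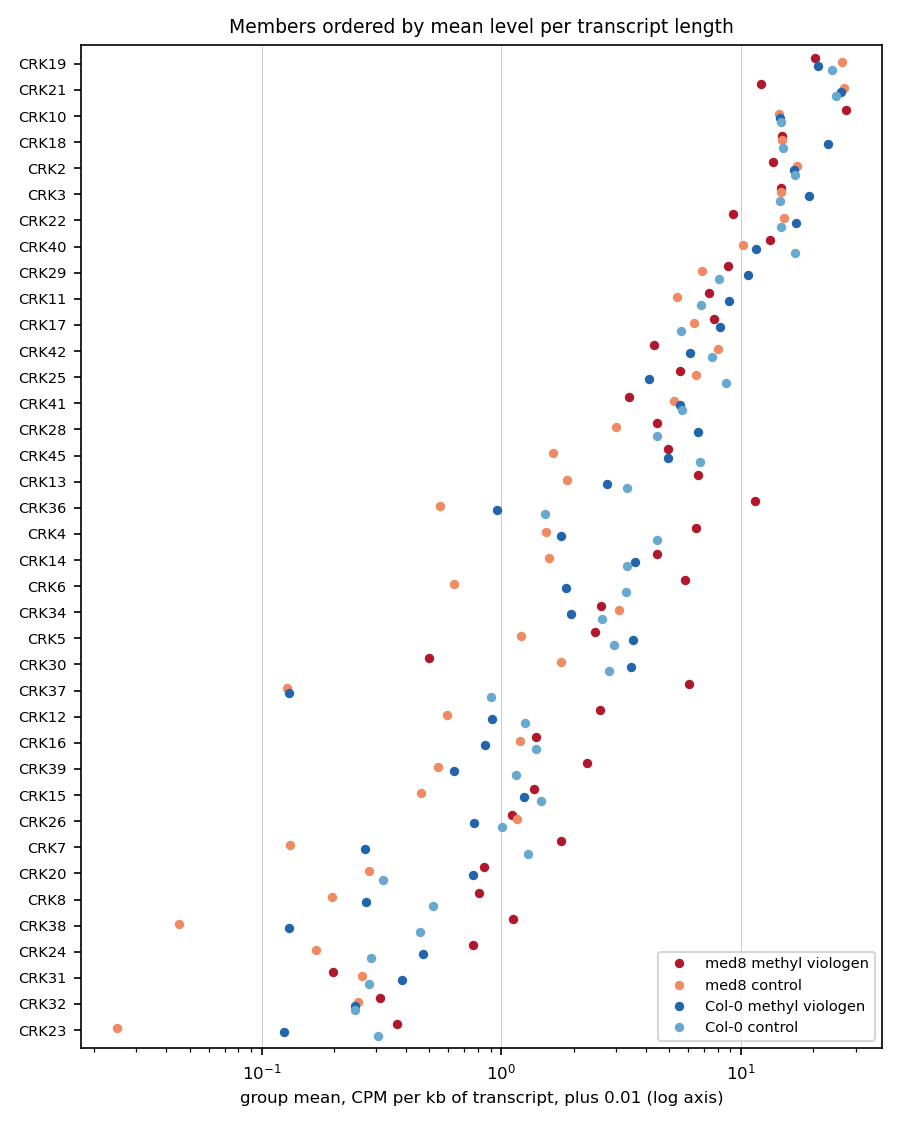
Group means of each member in CPM per kb of transcript, plus 0.01, on a log axis, with members ordered by their mean over all libraries. The most expressed members, from CRK19 at 22.9 down to CRK40 at 12.9 CPM per kb, lie at the top. Lower down, CRK37 and CRK38 had treated med8 (dark red) to the right of the other groups, at 6.03 and 1.11 CPM per kb. Their Col-0 controls came nearest, at 0.897 ± 1.37 and 0.445 ± 0.676 CPM per kb (SD, n = 3 each).

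In med8 seedlings, methyl viologen raised 15 of the 38 CRK genes and lowered 5. Across all 20741 loci tested, 21.8% were called higher and 21.2% lower in this comparison (edgeR's quasi-likelihood test, Benjamini-Hochberg adjusted p under 0.05, here and below). Of the 15, 11 were at least 4-fold higher. Of the 15 members with an SD above 1 in the Col-0 controls, 11 rose here. Of the other 23 members, 4 rose and 5 fell. The median log2 fold change was 0.50 over the members and 0.03 over all loci. Libraries did not overlap for 22 members with the higher values on methyl viologen and for 6 with the lower, where 28.1% and 25% of all loci did so. The 12 calls held by all 20 alternative fits and library exclusions were CRK10, CRK12, CRK20, CRK28, CRK36, CRK37, CRK38 and CRK39 among those that rose and CRK21, CRK22, CRK30 and CRK42 among those that fell. Without med8 control replicate 3, in which root markers were also low, 9 members rose and 9 fell. In the same comparison 3 of 15 root markers rose and 7 fell, and 0 of 11 leaf markers rose (0 also at an unadjusted p under 0.05 and by DESeq2) and 10 fell. Their part in the CRK counts was not tested.

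**Figure D3:**
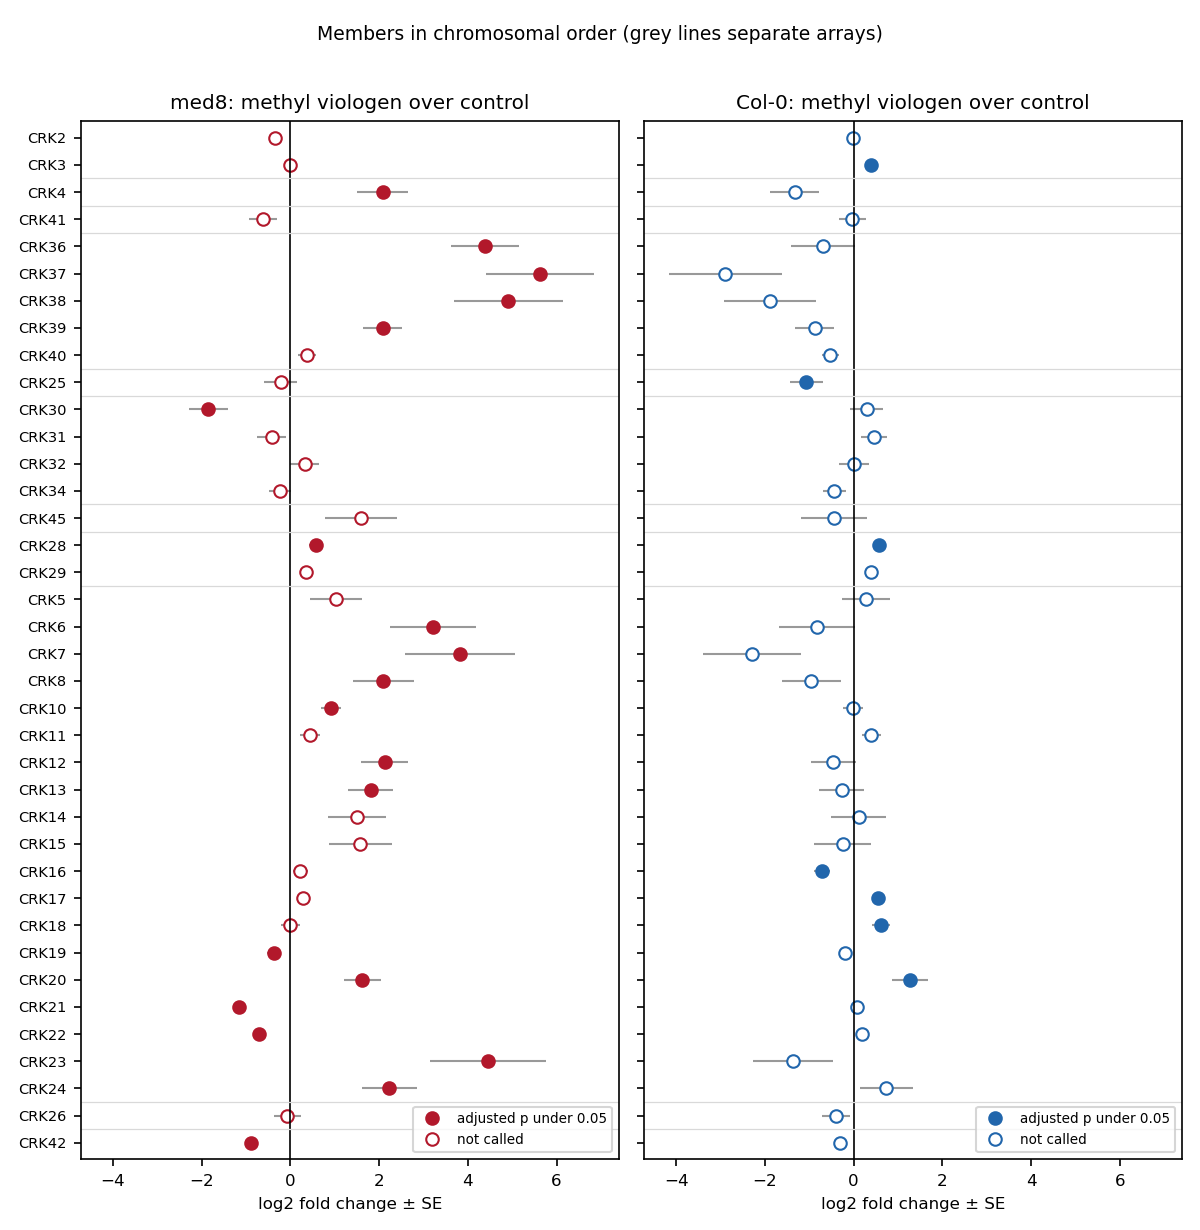
Log2 fold change ± SE of each member, methyl viologen over control, in med8 (left) and in Col-0 (right), in chromosomal order with filled points for adjusted p under 0.05. In med8 the points of CRK36 to CRK39 and of CRK6 to CRK8 lie far to the right, up to 5.63 for CRK37, while in Col-0 the same members lie left of 0 with none called.

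The largest fitted rises in med8, of CRK37 (log2 5.63) and CRK38 (4.91), lay in the CRK36 to CRK40 array. CRK23 of the CRK5 to CRK24 array came next (4.45), before CRK36 (4.38). The med8 controls of CRK37, CRK38 and CRK23 held 23, 7 and 4 counts in all. The ranges of log2 fold change ± SE of these genes and CRK36 overlapped, so their order is not settled. CRK36, a kinase known to strengthen pattern-triggered immunity and to bind ARCK1, had 20.1, 39.3 and 18.4 CPM in treated med8, 0.929, 1.76 and 1.03 CPM in med8 controls, 1.03, 3.05 and 2.36 CPM in treated Col-0, and 0.814, 8.14 and 1.36 CPM in Col-0 controls. All 3 treated med8 libraries lay above every other library. CRK36 was 20.8-fold higher on methyl viologen in med8 (log2 4.38 ± 0.76, edgeR adjusted p = 0.000831) and had −0.68 ± 0.72 in Col-0 (edgeR adjusted p = 0.518).

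CRK37, its divergent neighbour with 3680 bases between the genes, had 13.8, 20.3 and 5.82 CPM in treated med8, 0.138, 0.608 and 0.0356 CPM in med8 controls, 0.163, 0.348 and 0.285 CPM in treated Col-0, and 0, 5.46 and 0.473 CPM in Col-0 controls. Here too the treated med8 libraries were above all others, by a narrow margin over Col-0 control replicate 2. The rise in med8 was 49.7-fold (log2 5.63 ± 1.22, edgeR adjusted p = 0.00333), and the 0 in Col-0 control replicate 1 allows up to 0.0977 CPM. CRK38 had 2.11, 3.80 and 1.67 CPM in treated med8, 0.138, 0.101 and 0 CPM in med8 controls, 0.271, 0.174 and 0.370 CPM in treated Col-0, and 0.0326, 2.78 and 0.221 CPM in Col-0 controls. Its groups separated within med8 and between genotypes on methyl viologen, but Col-0 control replicate 2 reached the treated med8 level (log2 4.91 ± 1.23 in med8, edgeR adjusted p = 0.0077).

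CRK39 moved less and CRK40 was not called, although the pair shared 87.3% of their coding sequence. CRK39 had 4.74, 7.32 and 4.33 CPM in treated med8, 1.51, 1.45 and 0.891 CPM in med8 controls, 1.27, 1.51 and 1.71 CPM in treated Col-0, and 1.37, 5.11 and 1.77 CPM in Col-0 controls. CRK40 had 35.0, 42.5 and 34.6 CPM in treated med8, 32.9, 29.4 and 24.0 CPM in med8 controls, 29.6, 32.5 and 36.2 CPM in treated Col-0, and 32.8, 61.4 and 47.8 CPM in Col-0 controls. Treated med8 libraries of CRK39 lay above all others except Col-0 control replicate 2, and those of CRK40 lay within the range of the Col-0 controls. CRK39 was 4.23-fold higher in treated med8 than in med8 controls (log2 2.08 ± 0.44, edgeR adjusted p = 0.00281), and CRK40 had 0.38 ± 0.20 (edgeR adjusted p = 0.146). Of all 75-base stretches of the CRK39 and CRK40 transcripts, 2.61 and 2.21% occurred elsewhere.

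CRK4 (AT3G45860), the one measured member on chromosome 3, is known to act beside FLS2. It had 13.4, 22.5 and 13.7 CPM in treated med8, 3.17, 4.62 and 3.88 CPM in med8 controls, 4.34, 4.82 and 4.35 CPM in treated Col-0, and 3.03, 24.0 and 7.01 CPM in Col-0 controls. The treated med8 libraries lay above all others except Col-0 control replicate 2, the highest of the 12 (log2 2.08 ± 0.57 in med8, edgeR adjusted p = 0.0124, or 0.0654 without med8 control replicate 3).

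Within the CRK5 to CRK24 array, methyl viologen in med8 raised 9 of the 19 genes and lowered 3, where 21.8% of all loci were called higher and 21.2% lower. CRK6 and CRK7, whose joint loss is known to alter responses to extracellular reactive oxygen, rose by log2 3.22 ± 0.97 (edgeR adjusted p = 0.0196) and 3.82 ± 1.24 (edgeR adjusted p = 0.0279), and CRK8 beside them by 2.09 ± 0.69 (edgeR adjusted p = 0.0288). CRK6 (AT4G23140) had 9.30, 21.2 and 14.5 CPM in treated med8, 2.03, 1.82 and 0.962 CPM in med8 controls, 3.39, 4.32 and 6.63 CPM in treated Col-0, and 0.293, 21.4 and 3.91 CPM in Col-0 controls. CRK7 (AT4G23150) had 3.09, 6.09 and 2.61 CPM in treated med8, 0.138, 0.675 and 0 CPM in med8 controls, 0.596, 0.522 and 0.626 CPM in treated Col-0, and 0.0651, 7.69 and 0.852 CPM in Col-0 controls. Both had Col-0 control replicate 2 as the highest of all 12 libraries and replicate 1 among the lowest, so their Col-0 controls bracketed the treated med8 plants. These 3 calls were lost when single med8 libraries were left out: adjusted p reached 0.104 for CRK6, 0.12 for CRK7 and 0.0929 for CRK8, and the libraries concerned were med8 control replicates 1 (CRK7, CRK8), 2 (CRK6, CRK8) and 3 (all of them) and treated med8 replicate 2 (all of them).

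CRK12 and CRK13 lie 631 bases apart on one strand, and high CRK13 levels are known to give cell death and resistance to bacteria. CRK12 (AT4G23200) had 5.29, 8.47 and 4.98 CPM in treated med8, 1.41, 1.79 and 1.07 CPM in med8 controls, 1.36, 1.54 and 3.67 CPM in treated Col-0, and 1.21, 5.46 and 2.37 CPM in Col-0 controls. Col-0 control replicate 2 of CRK12 lay within the treated med8 range, and all other libraries below it. CRK12 rose 4.37-fold in med8 (log2 2.13 ± 0.53, edgeR adjusted p = 0.00717) and CRK13 rose 3.51-fold (log2 1.81 ± 0.51, edgeR adjusted p = 0.0145), while 11.39% of CRK13's 75-base stretches also occurred elsewhere. CRK10 (AT4G23180), one of the 3 most expressed members per length, had 49.4, 68.3 and 72.5 CPM in treated med8, 33.5, 37.7 and 29.0 CPM in med8 controls, 28.2, 36.3 and 37.1 CPM in treated Col-0, and 23.1, 44.3 and 34.7 CPM in Col-0 controls. Its treated med8 libraries were above all 9 others, and its rise of 1.90-fold (log2 0.92 ± 0.22, edgeR adjusted p = 0.00555) was among the smaller of the 15. CRK23 and CRK24 also rose in med8 (log2 4.45 ± 1.30 and 2.23 ± 0.62, edgeR adjusted p = 0.0169 and 0.013). CRK23 (AT4G23310) had 0.983, 1.39 and 0.887 CPM in treated med8, 0.138, 0 and 0 CPM in med8 controls, 0.325, 0.348 and 0.370 CPM in treated Col-0, and 0, 2.17 and 0.537 CPM in Col-0 controls. In the med8 controls this was 4 counts over the group.

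Among the 5 CRK genes that fell on methyl viologen in med8, 2 formed a divergent pair. CRK21 and CRK22 face away from each other with 688 bases between their starts. CRK21 had 29.5, 26.5 and 30.0 CPM in treated med8, 62.4, 59.4 and 69.9 CPM in med8 controls, 66.5, 63.5 and 56.1 CPM in treated Col-0, and 62.0, 55.4 and 60.1 CPM in Col-0 controls. CRK22 had 24.0, 24.1 and 23.7 CPM in treated med8, 38.9, 38.6 and 39.8 CPM in med8 controls, 45.7, 43.1 and 42.7 CPM in treated Col-0, and 33.7, 41.2 and 39.6 CPM in Col-0 controls. For both genes the 3 treated med8 libraries were below all 9 others, which lay close together. In med8, CRK21 fell 2.23-fold (log2 −1.16 ± 0.09, edgeR adjusted p = 2.96e-06) and CRK22 1.63-fold (log2 −0.71 ± 0.07, edgeR adjusted p = 1.99e-05), and in Col-0 they had 0.07 ± 0.09 and 0.20 ± 0.07 (edgeR adjusted p = 0.583 and 0.0533). Of CRK22's 75-base stretches 11.47% occurred elsewhere, and none of CRK21's did. CRK12, CRK13 and CRK28, which rose in med8, held no TTGAC in their upstream windows. The 300 bases before the starts of CRK21 and CRK22, parts of the same intergenic stretch, are shown here and hold none on either strand.
CRK21 (AT4G23290), chr4:12180937-12181236, minus strand: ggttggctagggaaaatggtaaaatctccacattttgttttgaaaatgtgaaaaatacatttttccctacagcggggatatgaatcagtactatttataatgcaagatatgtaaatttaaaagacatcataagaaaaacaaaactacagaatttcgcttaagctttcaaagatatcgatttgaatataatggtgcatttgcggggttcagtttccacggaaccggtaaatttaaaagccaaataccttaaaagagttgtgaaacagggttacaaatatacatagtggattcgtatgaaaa
CRK22 (AT4G23300), chr4:12181325-12181624, plus strand: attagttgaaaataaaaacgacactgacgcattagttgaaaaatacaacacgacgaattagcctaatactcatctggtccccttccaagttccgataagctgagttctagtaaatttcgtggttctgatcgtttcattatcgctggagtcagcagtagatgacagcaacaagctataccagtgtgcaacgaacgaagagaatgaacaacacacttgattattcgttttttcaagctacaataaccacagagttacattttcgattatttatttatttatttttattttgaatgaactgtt

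CRK30, CRK42 and CRK19 were the others that fell in med8. CRK30 (AT4G11460) had 1.27, 1.12 and 1.02 CPM in treated med8, 6.30, 3.07 and 2.89 CPM in med8 controls, 6.39, 5.92 and 11.6 CPM in treated Col-0, and 3.97, 5.59 and 9.82 CPM in Col-0 controls. Its treated med8 libraries were the lowest of the 12 (3.6-fold lower than med8 controls, log2 −1.85 ± 0.44, edgeR adjusted p = 0.00555). CRK42 (AT5G40380), the member on chromosome 5, fell 1.85-fold in med8 (log2 −0.89 ± 0.13, edgeR adjusted p = 0.000266). It averaged 11.6 ± 0.838 CPM in treated med8, 21.5 ± 2.86 CPM in med8 controls, 16.4 ± 2.57 CPM in treated Col-0 and 20.4 ± 2.05 CPM in Col-0 controls (SD, n = 3 each). CRK19 fell 1.30-fold (log2 −0.38 ± 0.14, edgeR adjusted p = 0.0434, with overlapping libraries and adjusted p up to 0.156 over the alternatives).

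**Figure D4:**
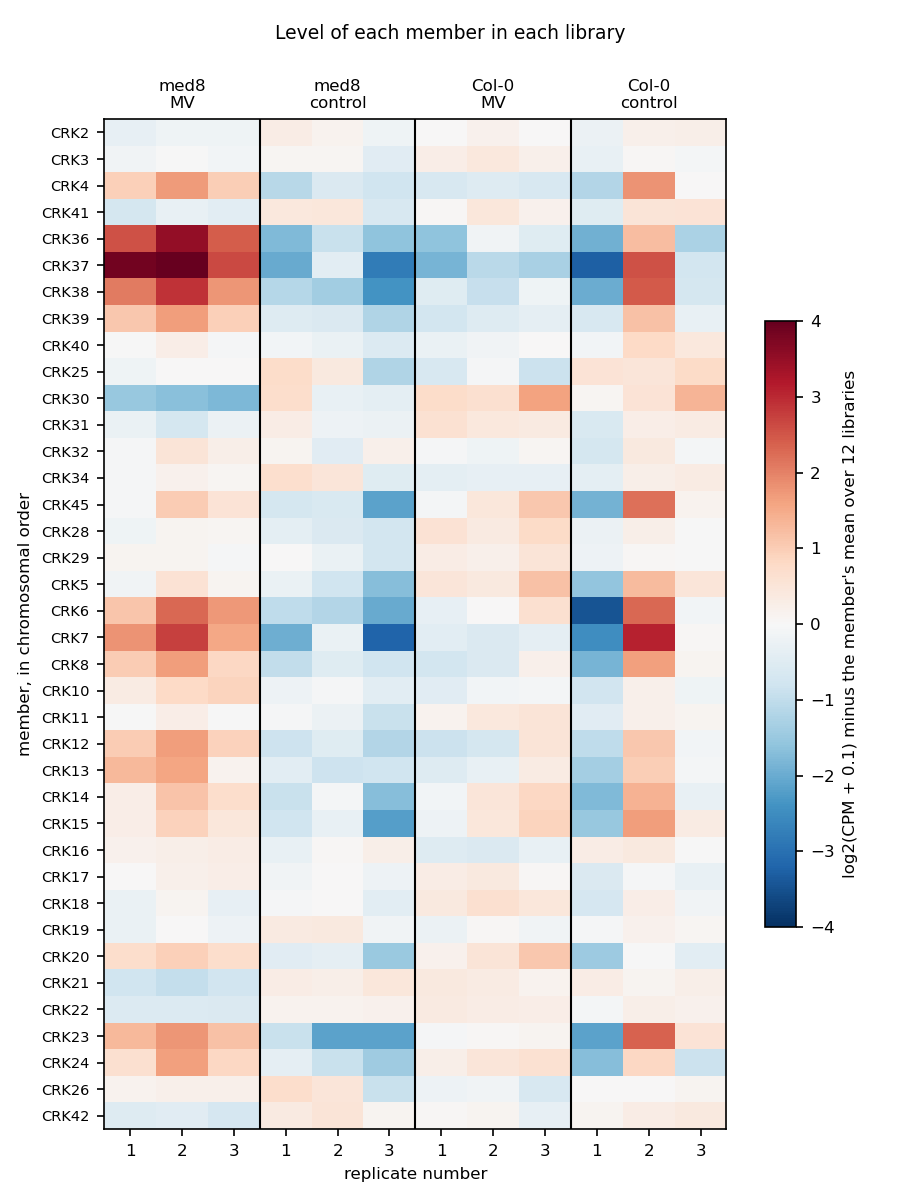
Log2(CPM + 0.1) of each of the 38 members minus its own mean, in each of the 12 libraries, with groups from left to right and members in chromosomal order. CRK36 to CRK39 and CRK6 to CRK8 are red in all 3 treated med8 libraries and in Col-0 control replicate 2, and CRK21, CRK22 and CRK30 are bluest in the treated med8 libraries.

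In Col-0, methyl viologen raised 5 of the 38 CRK genes and lowered 2, where 15.4% and 13.4% of all loci tested were called higher and lower. Those that rose were CRK3, CRK17, CRK18, CRK20 and CRK28, and those that fell were CRK16 and CRK25. Values on methyl viologen lay above all controls for 8 members and below them for 3, against 22.9% and 21.3% of all loci. The median over the members was −0.22, against 0 over all loci, and it became 0.33 without Col-0 control replicate 2. Single libraries moved the counts: 1 to 3 members were higher without Col-0 control replicate 1 or 3, any treated Col-0 library, or treated med8 replicate 1 or 3, and 7 were lower without Col-0 control replicate 1, against 1 without any of 8 other libraries. CRK16 and CRK17 were the 2 calls kept in all alternatives.

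CRK28 (AT4G21400), a partner of the co-receptor BAK1, had 9.94, 12.1 and 12.1 CPM in treated med8, 8.67, 7.59 and 6.70 CPM in med8 controls, 16.9, 14.6 and 19.3 CPM in treated Col-0, and 9.60, 13.4 and 11.1 CPM in Col-0 controls. It rose with methyl viologen in both genotypes and was lower in med8 on both media, with libraries that did not overlap in any of these 4 comparisons. The log2 values were 0.57 ± 0.15 in med8 and 0.58 ± 0.15 in Col-0 for methyl viologen (edgeR adjusted p = 0.00957 and 0.0119), and −0.58 ± 0.15 on methyl viologen and −0.57 ± 0.15 on control medium for med8 (edgeR adjusted p = 0.0139 and 0.0494). Its gene overlaps that of CRK29 by 470 bases on the same strand, and 16.09% of its 75-base stretches occurred elsewhere, so some reads may be shared. CRK20 (AT4G23280), known to affect growth of Pseudomonas, also rose in both (log2 1.62 ± 0.41 in med8, edgeR adjusted p = 0.00751, and 1.27 ± 0.40 in Col-0, edgeR adjusted p = 0.0334). It had 1.65, 2.00 and 1.67 CPM in treated med8, 0.688, 0.743 and 0.285 CPM in med8 controls, 1.11, 1.45 and 2.19 CPM in treated Col-0, and 0.293, 0.97 and 0.694 CPM in Col-0 controls. Treated libraries were above control libraries in both genotypes, and the genotypes overlapped.

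The neighbours CRK16, CRK17 and CRK18 responded in Col-0 in opposite directions. CRK16 (AT4G23240) had 2.63, 2.76 and 2.87 CPM in treated med8, 1.89, 2.43 and 2.78 CPM in med8 controls, 1.60, 1.54 and 1.88 CPM in treated Col-0, and 2.87, 3.10 and 2.30 CPM in Col-0 controls. CRK17 (AT4G23250) had 20.8, 23.8 and 24.7 CPM in treated med8, 18.7, 20.5 and 17.8 CPM in med8 controls, 25.4, 27.0 and 21.0 CPM in treated Col-0, and 13.8, 20.0 and 16.8 CPM in Col-0 controls. CRK16 fell in Col-0 (log2 −0.72 ± 0.18, edgeR adjusted p = 0.00938) while CRK17 rose (0.54 ± 0.13, edgeR adjusted p = 0.0105), as did CRK18 (0.62 ± 0.21, edgeR adjusted p = 0.0462). The annotated loci of CRK16 and CRK17 overlap by 1190 bases on one strand, and 28.98 and 20.77% of their 75-base stretches occurred elsewhere, the highest shares of the family, so the authors' counting could have split or dropped their reads. The annotated CRK17 coding sequence also holds both cysteine motifs of CRK16 at the same positions, and its length per kb includes that sequence. The same limit applies to the calls of CRK16 and CRK17 in the other comparisons. CRK18 (AT4G23260) had 28.1, 37.2 and 27.3 CPM in treated med8, 33.0, 34.2 and 25.4 CPM in med8 controls, 44.4, 52.7 and 46.7 CPM in treated Col-0, and 21.3, 41.4 and 30.9 CPM in Col-0 controls. Its treated Col-0 libraries were above all others.

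CRK2 and CRK3 form the array on chromosome 1. CRK2 was not called in any comparison, with log2 values of −0.34 ± 0.13 in med8 and −0.01 ± 0.13 in Col-0 for methyl viologen (edgeR adjusted p = 0.0533 and 0.957). CRK3 (AT1G70530) had 38.4, 41.5 and 39.3 CPM in treated med8, 44.1, 44.2 and 30.7 CPM in med8 controls, 50.8, 57.0 and 48.2 CPM in treated Col-0, and 34.5, 43.7 and 39.8 CPM in Col-0 controls. Its treated Col-0 libraries were again the highest (log2 0.40 ± 0.13 in Col-0, edgeR adjusted p = 0.0391, lost in 8 of 20 alternatives). CRK25 (AT4G05200) had 10.7, 12.1 and 12.2 CPM in treated med8, 19.9, 15.7 and 5.13 CPM in med8 controls, 7.75, 11.7 and 6.60 CPM in treated Col-0, and 17.5, 16.8 and 20.4 CPM in Col-0 controls. It fell in Col-0 (log2 −1.07 ± 0.37, edgeR adjusted p = 0.0496, up to 0.162 over the alternatives), and its med8 controls ran from the lowest of all 12 libraries to near the highest.

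On control medium, med8 and Col-0 differed in 1 of 38 CRK genes. CRK28 was called lower and 0 members were called higher, where 5.79% of all loci were called, 2.98% lower and 2.81% higher. At an unadjusted p under 0.05, 11 members were lower and 0 higher, and DESeq2 called 4 lower and 0 higher. Libraries did not overlap for 1 member that was lower and for 0 that were higher, against 11.4% and 11.9% of all loci. The members' median log2 difference was −0.50, against 0 over all loci, and the count of lower members was 11 without Col-0 control replicate 1. It was 0 without any one of 9 libraries, namely the other Col-0 controls, the med8 libraries of both media and treated Col-0 replicate 1. The CRK28 call was lost in 11 of 20 alternatives, with adjusted p up to 0.189. The largest fitted differences, such as log2 −4.18 ± 1.35 for CRK23 (edgeR adjusted p = 0.0968), went with Col-0 control libraries that lay far apart.

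On methyl viologen, med8 had 8 CRK genes higher and 7 lower than Col-0, where 10.8% and 12.9% of all loci were called. CRK4, CRK10, CRK12, CRK16, CRK36, CRK37, CRK38 and CRK39 were higher, and CRK18, CRK21, CRK22, CRK28, CRK30, CRK31 and CRK42 lower. This contrast takes from the control libraries only the scaling, the filter and the shared estimate of the spread. CRK37 was 49.8-fold higher in med8 (log2 5.64 ± 1.19, edgeR adjusted p = 0.00574), CRK36 12.1-fold (3.6 ± 0.70, edgeR adjusted p = 0.00362), CRK38 9.17-fold (3.2 ± 0.97, edgeR adjusted p = 0.0346) and CRK39 3.65-fold (1.87 ± 0.43, edgeR adjusted p = 0.00856). CRK30 was 7.04-fold lower (−2.81 ± 0.43, edgeR adjusted p = 0.000826), CRK21 2.16-fold lower (−1.12 ± 0.09, edgeR adjusted p = 6.78e-06) and CRK22 1.83-fold lower (−0.87 ± 0.07, edgeR adjusted p = 1.04e-05). Libraries did not overlap for 15 members higher and 11 lower in med8, against 23.1% and 23.2% of all loci. Calls held in all alternatives for CRK16, CRK21, CRK22, CRK30, CRK36, CRK37 and CRK39. The higher count was 4 without treated Col-0 replicate 1 and 5 without treated Col-0 replicate 2 or any treated med8 library. The lower count was 4 without any treated Col-0 library or treated med8 replicate 1 or 3, and 11 without med8 control replicate 3. With only these 6 libraries fitted, 14 were higher and 11 lower.

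The difference between the genotypes in their response, tested as an interaction, was called for 12 CRK genes, 9 with a higher response in med8 and 3 with a lower one, where 6.25% and 7.66% of all loci were called. The 9 were CRK37 (log2 8.52 ± 1.76, edgeR adjusted p = 0.00837), CRK38, CRK7, CRK23, CRK36 (5.06 ± 1.04, edgeR adjusted p = 0.00823), CRK4, CRK39 (2.96 ± 0.62, edgeR adjusted p = 0.0089), CRK12 and CRK16. The 3 were CRK22 (−0.91 ± 0.10, edgeR adjusted p = 0.00017), CRK21 (−1.23 ± 0.12, edgeR adjusted p = 7.92e-05) and CRK30 (−2.15 ± 0.58, edgeR adjusted p = 0.0297). In the CRK36 to CRK40 array 4 of 5 genes were called, and the fifth, CRK40, had 0.91 ± 0.28 (edgeR adjusted p = 0.0511). DESeq2 called all 5 of them higher. Of the 15 members with an SD above 1 in the Col-0 controls, 7 were among the 9. Of the other 23 members, 2 had a higher response and 3 a lower one. The high side rests in part on Col-0 control replicate 2: without it 3 members remained called higher, CRK36 (3.41, edgeR adjusted p = 0.0139), CRK4 (2.24, edgeR adjusted p = 0.00975) and CRK39 (2.15, edgeR adjusted p = 0.00684), and the median over the members was 0.18 instead of 0.80. Without Col-0 control replicate 1 the count was 14, without med8 control replicate 3 it was 4 (with 5 lower), and without treated Col-0 replicate 1 or 2 or treated med8 replicate 2 it was 5. CRK21, CRK22, CRK36 and CRK39 were called in all alternatives that gave an interaction.

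**Figure D5:**
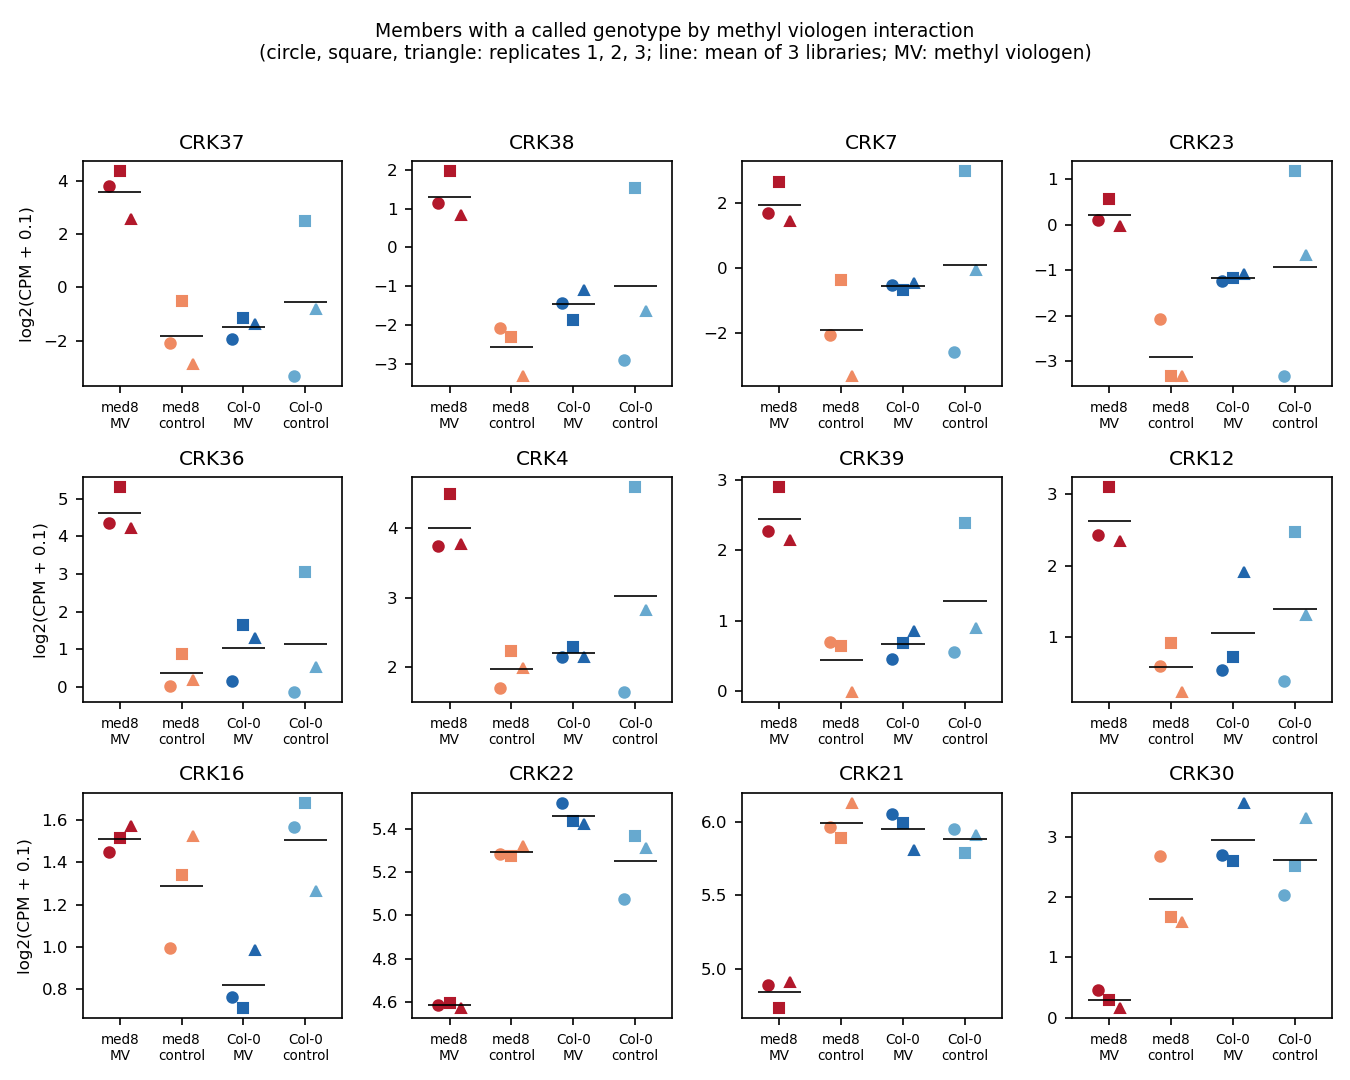
Log2(CPM + 0.1) in each library for the 12 members with a called interaction, by group, with the mean of 3 libraries as a line. CRK36 and CRK37 stand above all other libraries in treated med8 plants, CRK21, CRK22 and CRK30 stand below them, and the Col-0 controls (light blue) of CRK7 and CRK23 span from the bottom to the top of the panel.

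The closest copies were set side by side. Of the 5 pairs with at least 85% identity over at least 80% of the shorter coding sequence, CRK19 and CRK20 (90.2%) had −0.38 and 1.62 for methyl viologen in med8, both called. CRK39 and CRK40 (87.3%) had 2.08 and 0.38, and CRK31 and CRK32 (87.5%) had −0.42 and 0.32, neither called. CRK28 and CRK29 (86.9%) had 0.57 and 0.36, and CRK17 and CRK18 (85.2%) had 0.28 and 0.00. Over a shorter aligned stretch, CRK8 was 88.9% identical to CRK6 (65.5% of the shorter sequence) and 86.4% identical to CRK7 (66.2%), and all of CRK6, CRK7 and CRK8 rose in med8. Stretches of 75 bases were searched for at other places in the nuclear genome and in transcripts of the other members. In 24 of the 38 members no stretch of the transcript occurred there. In 8 more than 10% did, namely CRK6, CRK8, CRK13, CRK16, CRK17, CRK22, CRK28 and CRK29. Reads of those 8 could be shared with other genes, depending on the authors' counting, and CRK10 overlaps CRK11 by 32 bases on the other strand.

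Promoters were searched for 3 motifs on both strands. TTGAC was found in 28 of the 38 members' windows (73.7%), against 50.4% of 27443 annotated nuclear promoters of the same length. TGACG, the core bound by TGA factors, which overlaps TTGAC where both occur as TTGACG, was in 14 (36.8%, against 21.3%). The mitochondrial dysfunction motif was in 1 (2.6%, against 2.1%). By response in med8, TTGAC stood before 12 of the 15 members that rose, 1 of the 5 that fell and 15 of the 18 not called. The 3 members with a lower interaction, CRK21, CRK22 and CRK30, held no TTGAC. It stood before 8 of the 9 with a higher one and 20 of the 26 with none called. CRK11, with 6 matches the most of any member, was not called in any comparison. Some windows are not intergenic. Those of CRK16 and CRK28 lie inside the loci of CRK17 and CRK29, and that of CRK15 runs into CRK16. CRK16, with 3 TTGAC matches in such a window, is counted among the 8 of 9. The annotated transcripts of CRK14 to CRK17 are coding sequence only, so their windows end at the start codon. How many of the 27443 windows are of such kinds was not counted. These are matches of letters, not shown to be bound.

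Related genes were read as context, beside 21.8% of all loci called higher and 21.2% lower for methyl viologen in med8 and 15.4% and 13.4% in Col-0. Of 4 other DUF26 kinases in the table, methyl viologen raised CRK43 and CRK9 in med8 (log2 0.41 ± 0.11 and 0.89 ± 0.32, edgeR adjusted p = 0.0137 and 0.0426) and lowered 0, and in Col-0 it raised 0 and lowered 0, with 0 and 1 at an unadjusted p under 0.05 and 0 and 0 by DESeq2. CRK9 had 16.4, 23.6 and 20.7 CPM in treated med8, 10.7, 12.6 and 9.37 CPM in med8 controls, 7.78, 10.7 and 12.8 CPM in treated Col-0, and 7.91, 23.7 and 15.4 CPM in Col-0 controls, again with Col-0 control replicate 2 among the highest. CRK27 was lower in med8 on both media (−0.84 ± 0.24 on methyl viologen and −1.44 ± 0.25 on control medium, edgeR adjusted p = 0.0245 and 0.00842). The plasmodesmata-located DUF26 proteins, which share the domain without the kinase, had 1 of 8 higher and 1 lower for methyl viologen in med8 and 2 higher and 1 lower in Col-0, which is 12.5% and 12.5% in med8 and 25% and 12.5% in Col-0 and no result about this small list.

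Receptors and partners of pattern-triggered immunity, the pathway in which several CRKs act, rose in med8 for 12 of 24 genes and fell for 2, and in Col-0 rose for 2 and fell for 2. These were 50% and 8.33% of the list in med8, against 21.8% and 21.2% of all loci, and 8.33% and 8.33% in Col-0, against 15.4% and 13.4%. Their median was 0.46 in med8 and −0.04 in Col-0. LYK5, a chitin receptor, rose in med8 (1.89 ± 0.22, edgeR adjusted p = 5.46e-05), as did the transcription factor gene WRKY33 (1.91 ± 0.22, edgeR adjusted p = 4.79e-05) and the kinase gene CPK28, which limits this pathway (0.97 ± 0.11, edgeR adjusted p = 4.78e-05). Salicylic acid genes rose for 10 of 17 in med8 and fell for 0 (0 also at an unadjusted p under 0.05 and by DESeq2), and in Col-0 rose for 0 (0 by either) and fell for 6. Their summed level was 661.9, 867.3 and 539.0 CPM in treated med8, 281.5, 328.2 and 191.3 CPM in med8 controls, 169.7, 196.8 and 184.4 CPM in treated Col-0, and 176.1, 765.8 and 374.2 CPM in Col-0 controls. The mean log2 level of the CRK members was 2.86, 3.28 and 2.88 in treated med8, 2.13, 2.14 and 1.41 in med8 controls, 2.29, 2.49 and 2.64 in treated Col-0, and 1.45, 3.37 and 2.49 in Col-0 controls. By the mean log2 level of each list, the Col-0 controls were highest in replicate 2 and lowest in replicate 1 for both lists. The med8 controls were highest in replicate 2 and lowest in replicate 3 for both lists. In treated Col-0 both lists were lowest in replicate 1, but the CRK members were highest in replicate 3 and the salicylic acid genes in replicate 2. In treated med8 both were highest in replicate 2, but the lowest library was replicate 1 for the CRK members and replicate 3 for the salicylic acid genes. The pattern-triggered immunity list had the same highest and lowest replicate as the CRK members in every group. Its mean log2 level was 4.9, 5.15 and 5.08 in treated med8, and 4.28, 5.04 and 4.73 in Col-0 controls. The other DUF26 kinases shared the highest and lowest replicate of the CRK members only in the Col-0 controls. What set these library orders was not tested. Wall-associated kinases WAK1 and WAK3 rose in med8 (2.35 ± 0.77 and 2.90 ± 0.92, edgeR adjusted p = 0.0289 and 0.0242), 2 of 10 receptor kinases of other families that did, while 3 of the 10 fell. These shares, 20% and 30%, lie near the 21.8% and 21.2% of all loci.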

How the data were processed

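RNA from 12 seedling libraries was sequenced as 75 bp single-end reads after stranded mRNA preparation, per the labels' protocols. The authors deposited raw counts per locus, made with Trim Galore 0.3.3, TopHat2 2.1.0 and featureCounts of Subread 1.4.6 on TAIR10, per the submitters' processing notes, and the strand setting of the counting is not given in the sources used here. Groups came from the labels. Loci were filtered with edgeR 4.0.16 in R 4.3.3 (filterByExpr, minimum count 10, minimum total 15), which kept 20741 of 21543, scaled by TMM and fitted with 1 mean per group by the robust quasi-likelihood test. The 5 contrasts were adjusted by Benjamini-Hochberg over all loci tested, and an SE is the log2 fold change divided by the square root of F. CPM values use TMM library sizes. A count of 3 served as the floor at 0 counts, and such floors cover counting error only. DESeq2 1.42.0, other scalings and filters, a replicate block, fits of 2 groups and library exclusions were alternatives. The fit was tested on counts simulated with its own dispersions. Genes varied independently there, so that test does not cover libraries in which many genes shift together. Replicate numbers did not pair the samples. RefSeq TAIR10.1 gave gene positions and sequence, and all 40 loci matched it by locus tag. The CRK members and the lists were chosen with earlier results of these data known, so the tests on them describe these libraries and are no independent support. Values per library are given for members among the 6 largest called changes of a comparison with at least 1 CPM in the higher group mean, the 3 members with the highest mean CPM and members with a called interaction, and for other genes MED8 and up to 3 of each list with the smallest adjusted p of the interaction. CRK10 and CRK40 were added after their values were seen.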

Additional observations from a re-analysis of the deposited data

Results flagged for a closer look

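The response to methyl viologen differed between med8 and Col-0 for 12 CRK genes by the interaction term of the edgeR fit. The interaction, as the med8 response minus the Col-0 response on the log2 scale, was 8.52 for CRK37, 6.78 for CRK38, 6.11 for CRK7, 5.81 for CRK23, 5.06 for CRK36, 3.42 for CRK4, 2.96 for CRK39, 2.59 for CRK12 and 0.94 for CRK16. It was −0.91 for CRK22, −1.23 for CRK21 and −2.15 for CRK30. Without Col-0 control replicate 2, the library highest in salicylic acid genes among its group, CRK37 had 5.49 (edgeR adjusted p = 0.0686), CRK38 3.83 (0.0871), CRK23 4.09 (0.0984), CRK7 3.48 (0.118), CRK12 1.84 (0.0921), CRK16 0.84 (0.0675) and CRK30 −2.06 (0.0633). The part of that library's state in these values was not tested.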

How the results depend on the processing

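No member's called value reversed in any of the 20 alternatives. Counts of CRK members moved as follows. Methyl viologen in Col-0 lowered 1 with RLE scaling or no filter and 10 with Col-0 control replicate 1 and med8 control replicate 3 left out together. That pair left out gave 9 lower for methyl viologen in med8, 3 lower for med8 on control medium (1848 of all loci called), 13 higher and 11 lower for med8 on methyl viologen and 6 lower for the interaction. For med8 on control medium, upper-quartile scaling gave 2 lower, DESeq2 4 (1976 of all loci), the replicate block 0 and a fit of the 2 groups alone 0 (143 of all loci), and for med8 on methyl viologen a fit of the 2 groups alone gave 14 higher and 11 lower. The block is no pairing: same-numbered libraries correlated between −0.38 and 0.46 in their deviations, with 7 of 18 pairs over 0.1. Leaving out 1 library at a time gave 1 to 7 higher and 1 to 7 lower for methyl viologen in Col-0, 9 to 20 and 4 to 9 for methyl viologen in med8, 0 to 0 and 0 to 11 for med8 on control medium (402 to 1625 of all loci), 4 to 12 and 4 to 11 for med8 on methyl viologen (3211 to 6390) and 3 to 14 and 2 to 5 for the interaction (1874 to 3332), whose members' median ran between 0.18 and 0.91. The cause of these shifts was not tested. CRK7, CRK23, CRK37 and CRK38 had libraries at 0 counts, where a fold depends on a few counts.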
